A study of Mus musculus with 8 samples.

Results

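The genes described here are 8 genes of the B cell lineage, Ms4a1, Cd79a, Cd79b, Cd22, Blk, Blnk, Pax5 and Pou2af1, chosen by their symbols from the 750 immune-related genes of a NanoString nCounter mouse panel. They were counted in peritoneal tumors of MC38, a murine colon cancer cell line, implanted in the peritoneal cavity of wild-type male C57BL/6 mice aged 7 to 8 weeks. The mice were injected intraperitoneally 2 times, first on day 7 after implantation, with either PBS or 15 µg of the STING agonist RR-CDA, a synthetic cyclic dinucleotide, and 4 tumors of each group were collected 10 days after the first injection. The comparison asks how the genes that mark B cells differed between tumors treated with the agonist and tumors treated with PBS. The assay hybridizes color-coded probes to RNA of the whole tumor and counts them without amplification. In such bulk tissue, fewer B cells and less RNA per B cell cannot be told apart.

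The counts of the 750 genes summed to 285795, 301429, 403150 and 241724 in PBS tumors 1 to 4 and to 311523, 241506, 304728 and 414698 in STING agonist tumors 1 to 4. Over 358 genes of moderate count, PBS tumors 2 and 4 differed by less than the sampling noise (chi-square 0.404 per degree of freedom), where the chi-square of the other 11 within-group pairs was 5.89 to 12.6. Their counts were therefore averaged and used as 1 sample, named PBS 2+4, which leaves 3 control samples and 4 treated tumors. The labels call the tumors replicates without saying that each came from a separate animal, so p-values measure the spread between these samples, which may be technical. The tumors came from more than 1 experiment, and the sources used here do not tell which tumor belongs to which, so no comparison within an experiment was made and the part of the experiment in any difference was not tested. Normalized counts are counts divided by a factor for each sample, taken from the geometric mean of its 20 housekeeping genes. The panel also carries 8 negative probes, which match no mouse transcript. The mean plus 2 SD of these probes ranged from 5.03 counts in STING agonist tumor 2 to 11.3 in PBS tumors 2 and 3. Averaged over the 7 samples this limit was 8.36 counts, and a gene whose mean count was not above it is called at or under background. The labels give the tissue as colon, and the epithelial gene Cdh1 lay above the limit in all 8 tumors, with 9 to 48 counts.

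B cells recognize antigen through a membrane antibody whose signal is passed on by a pair of attached chains, encoded by Cd79a and Cd79b, and then by kinases such as Blk and the adaptor protein encoded by Blnk. The surface proteins CD20, encoded by Ms4a1, and CD22 tune this signal, while the transcription factor Pax5 and the coactivator encoded by Pou2af1 hold the cells to their lineage and support antibody production. In tumors, B cells often gather with T cells in lymphoid aggregates, from which some mature into plasma cells.

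Of the 8 genes, 5 were at or under background in these tumors, namely Ms4a1, Cd79a, Blk, Pax5 and Pou2af1. Only Cd79b, Cd22 and Blnk had mean counts above it. Blnk was higher in all 4 treated tumors than in every control, and it was the 1 gene of the 8 whose groups did not overlap after housekeeping scaling. On the panel as a whole, 16.8% of genes were higher without overlap and 1.47% were lower, so 1 of 8 is close to the background. None of the 8 genes had an adjusted p under 0.05 in edgeR's quasi-likelihood test, and the share of the panel was also 0%, with a lowest adjusted p of 0.175. Before adjustment, 1 of the 8 genes had a p under 0.05, again Blnk, against 17.6% of the panel in the higher direction (132 genes) and 1.33% in the lower (10 genes). Limma called 0 panel genes after adjustment. The Wald test of DESeq2 called 52 of the 622 genes to which it gave an adjusted p, or 8.36%, and 0 of the 3 lineage genes among them. The panel counts rested in part on single tumors. Without STING agonist tumor 3 edgeR called 7 genes after adjustment and without PBS tumor 3 it called 1, and at the unadjusted threshold 142 genes became 85 without STING agonist tumor 1 and 89 without STING agonist tumor 4.

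Within the receptor complex, the 2 chains differed in detection. Cd79a (NM_007655.3) had 3, 3, 8 and 2 counts in PBS tumors 1 to 4 and 4, 5, 4 and 3 counts in STING agonist tumors 1 to 4. None of these counts was above the limit of its own tumor, and no direction is drawn from this gene. Cd79b (NM_008339.2) had 20, 14, 33 and 17 counts in the PBS tumors and 28, 10, 25 and 37 in the treated tumors, of which 8 of 8 lay above the limit. After scaling, Cd79b stood at 18.5, 18.7 and 23.8 normalized counts in PBS 1, PBS 2+4 and PBS 3 and at 32.7, 12.2, 25.5 and 32.6 in the treated tumors. STING agonist tumor 2 lay below every control and the other 3 treated tumors lay above every control, so the groups overlapped. The controls had a mean of 20.3 ± 3.0 (SD, n = 3) and the treated tumors of 25.8 ± 9.64 (SD, n = 4). The log2 fold change of Cd79b was 0.34 with a 95% interval of -0.55 to 1.23 (adjusted p = 0.709, edgeR), which holds both no difference and a difference of 1 on the log2 scale. It was 0.57 without STING agonist tumor 2 and 0.21 without STING agonist tumor 1 or 4. The probes of the 2 chains are different molecules with efficiencies of their own, so the counts of Cd79a and Cd79b were not compared with each other.

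Downstream of the receptor, the Src family kinase Blk (NM_007549.2) had 1 to 6 counts in every tumor and was above the limit in none. The 95% interval of its log2 fold change ran from -1.36 to 1.34, and at this depth no direction is drawn from Blk. Blnk (NM_008528.4), the adaptor that brings phospholipase C-gamma and Btk to the activated receptor and is also made by some myeloid cells, had 21, 17, 22 and 9 counts in PBS tumors 1 to 4. In STING agonist tumors 1 to 4 it had 37, 22, 30 and 34 counts, and all 8 tumors were above their own limit. The normalized count of Blnk was 19.4, 15.2 and 15.8 in PBS 1, PBS 2+4 and PBS 3, and 43.2, 26.9, 30.7 and 30.0 in the treated tumors. The controls lay close together, the lowest treated tumor (STING agonist 2) was above the highest control (PBS 1), and STING agonist 1 was highest. For Blnk the controls averaged 16.8 ± 2.29 (SD, n = 3) and the treated tumors 32.7 ± 7.2 (SD, n = 4), a ratio of 1.94. Its log2 fold change was 0.95 (SE 0.32, 95% interval 0.23 to 1.67, adjusted p = 0.194, edgeR), which does not pass the adjustment over the 750 genes. Its sign was the same under every scaling but one, in which Ptprc counts served as library size and the log2 fold change was -0.39 (0.03 when PBS 2+4 was left out as well).

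**Figure D1:**
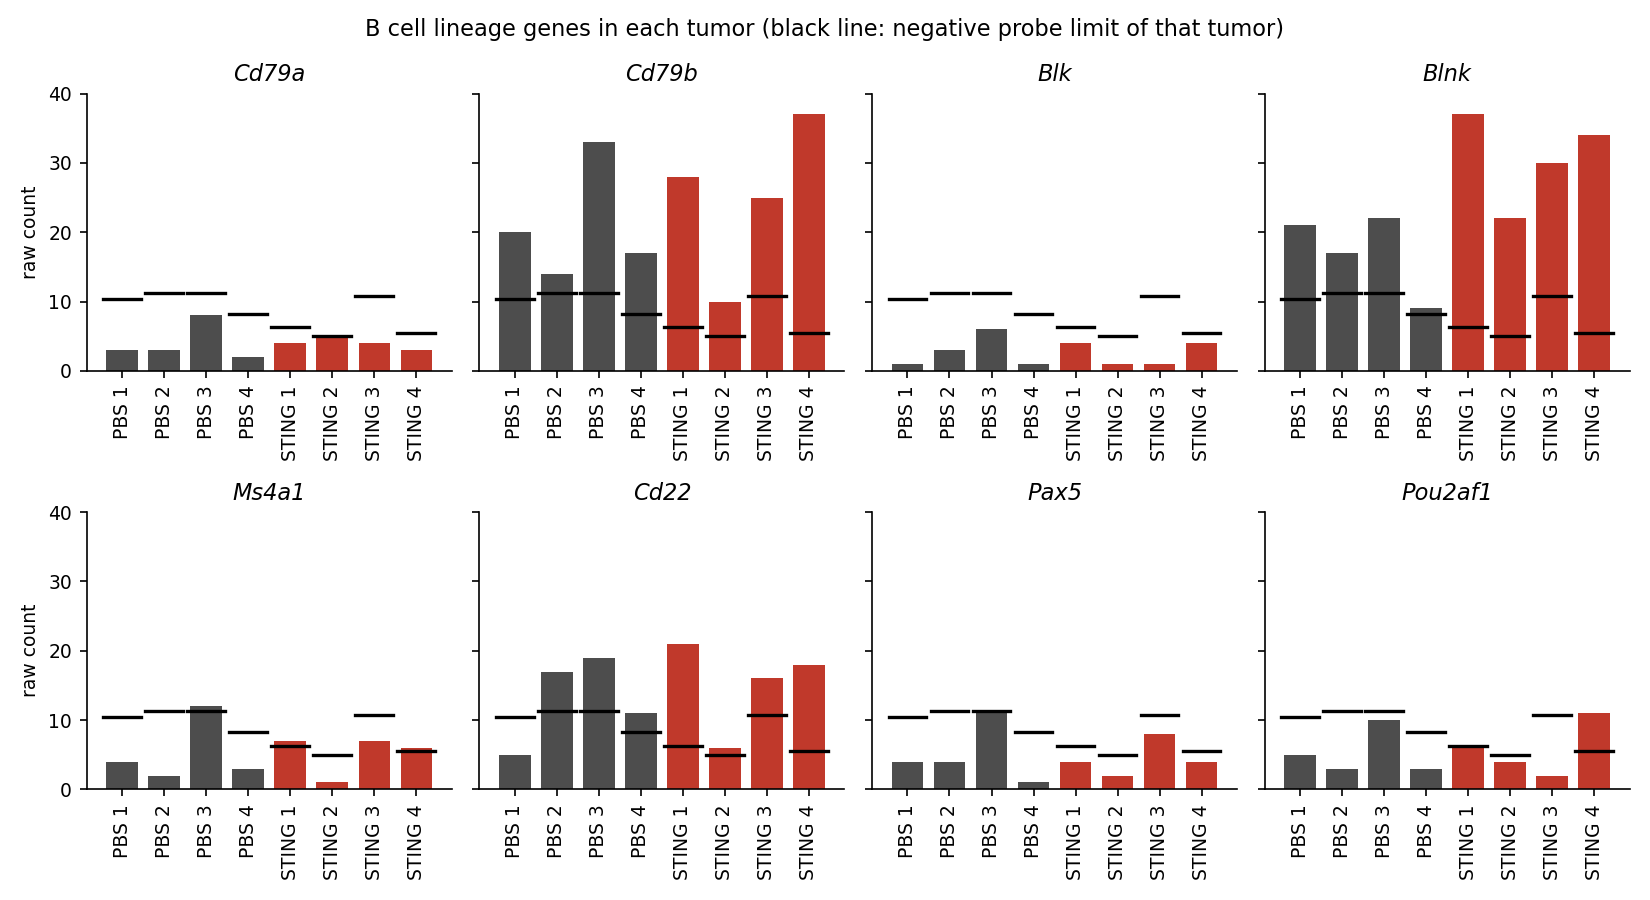
Raw counts of the 8 B cell lineage genes in each of the 4 PBS tumors (grey bars) and 4 STING agonist tumors (red bars), with the mean plus 2 SD of the negative probes of each tumor as a black line. Cd79b and Blnk stand above the line in 8 tumors, Cd22 in 7, Ms4a1 in 3 and Pou2af1 in 1, while Cd79a, Blk and Pax5 stay under it in all 8.

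Among the surface proteins, Ms4a1 (NM_007641.5), which encodes CD20, the classical marker of mature B cells, had 4, 2, 12 and 3 counts in PBS tumors 1 to 4 and 7, 1, 7 and 6 counts in the treated tumors. It passed the limit in PBS 3, STING agonist 1 and STING agonist 4. Its mean count of 5.57 was under background, the 95% interval of its log2 fold change ran from -1.29 to 1.47, and no direction is drawn from it. Cd22 (NM_001043317.2), a sialic acid-binding receptor that inhibits signalling from the B cell receptor, had 5, 17, 19 and 11 counts in the PBS tumors and 21, 6, 16 and 18 in the treated tumors, and only PBS tumor 1 was not above its limit. Normalized, Cd22 was 4.63, 16.3 and 13.7 in PBS 1, PBS 2+4 and PBS 3 and 24.5, 7.33, 16.3 and 15.9 in STING agonist tumors 1 to 4. PBS 1 was lowest, STING agonist 1 was highest, and the groups overlapped. The mean was 11.5 ± 6.14 (SD, n = 3) against 16.0 ± 7.02 (SD, n = 4), and the log2 fold change was 0.48 with a 95% interval of -0.70 to 1.66 (adjusted p = 0.679, edgeR). Single samples weighed on this value, which was 0.10 without PBS 1, 0.21 without STING agonist 1 and 0.77 without PBS 2+4.

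The lineage regulators were near the negative probes. Pax5 (NM_008782.2), which commits progenitors to the B cell lineage, had 4, 4, 11 and 1 counts in PBS tumors 1 to 4 and 4, 2, 8 and 4 in the treated tumors, with none above its limit. Pou2af1 (NM_011136.2), a coactivator of octamer-binding transcription factors, had 5, 3, 10 and 3 counts in the PBS tumors and 6, 4, 2 and 11 in the treated tumors, and STING agonist tumor 4 was the single tumor above its limit. Together the 5 genes at or under background gave 40 counts, which ranged from 1 to 12, and 4 of the 40 were above the limit of their tumor. In 4 of these 5 genes the highest raw count was in PBS tumor 3, and after scaling this held for 1 of 5. Their mean normalized count was 6.77 in PBS tumor 3 and 5.84 in STING agonist tumor 1, the highest tumor of each group, and 2.66 to 4.94 in the other 6. The highest tumors thus came from both groups. Over all 8 genes the median log2 fold change was 0.18, beside 0.22 for the whole panel, but 5 of its 8 values are from genes without a direction, and the 3 genes above background had 0.34, 0.48 and 0.95, beside 0.25 as the median of panel genes above background.

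**Figure D2:**
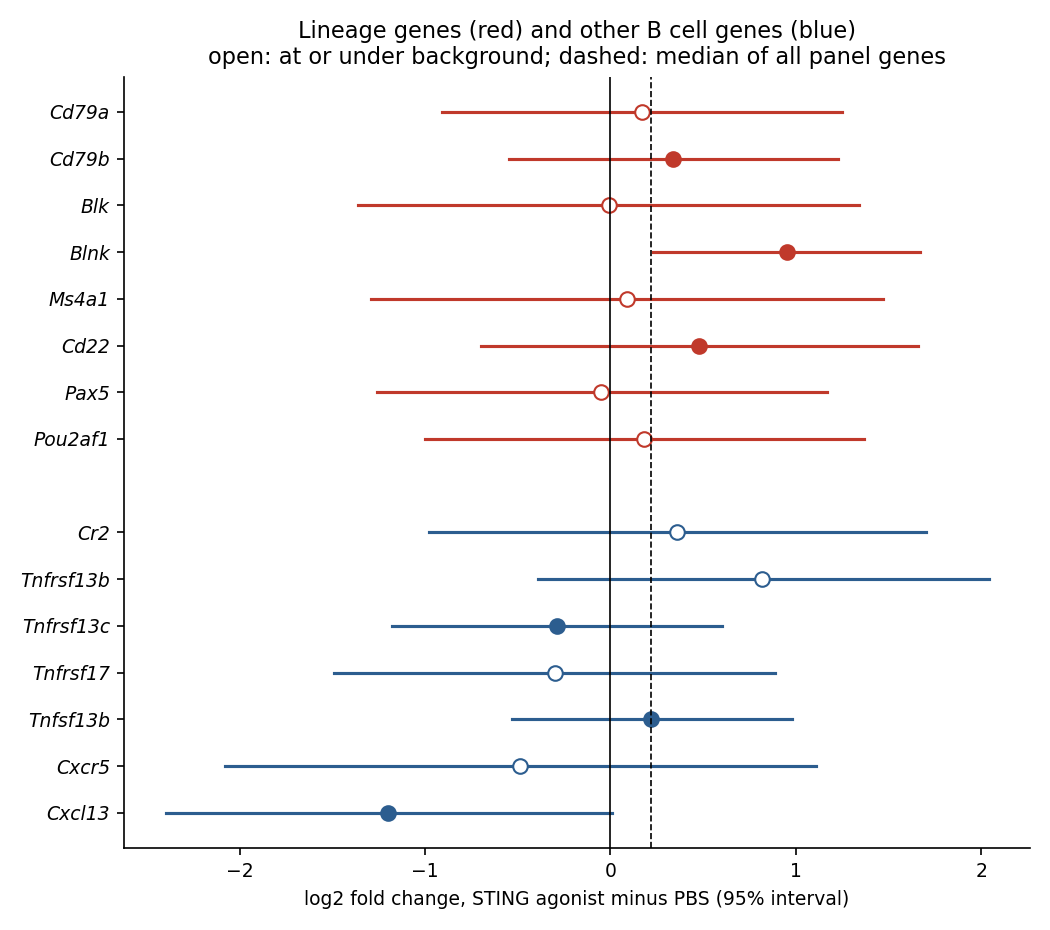
Log2 fold change, STING agonist minus PBS, with 95% intervals, for the 8 B cell lineage genes (red) and 7 other genes (blue), after housekeeping scaling. The other genes define B cells or their survival and homing factors. Intervals were computed from edgeR's log2 fold change and F statistic. Open symbols are genes at or under background and the dashed line is the panel median of 0.22. Only Blnk has an interval above 0, from 0.23, and with Ptprc as the library size its log2 fold change turned to -0.39 (0.03 without PBS 2+4).

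RefSeq promoter sequences of GRCm38.p6, which run from 250 bases before to 50 bases after the start, were at hand for 5 of the 8 genes, Pax5, Cd79a, Cd22, Pou2af1 and Blnk. Both strands were searched for the octamer ATGCAAAT, the element through which the protein of Pou2af1 acts, for AGGAAG, a core of the sites of ETS factors such as PU.1, and for TTCNNNGAA, the element of STAT factors. The octamer was in 1 of the 5 promoters, that of Blnk, against 1.75% of 27025 promoters. The ETS core was in 2 of the 5, those of Blnk and Cd79a, against 35.1%, and the STAT element was in 0 of the 5, against 8.47%. The pair is shown because Blnk was above background in all tumors and Cd79a in none. Capitals mark the motifs, and both sequences are written 5′ to 3′ on the strand of the gene. In Blnk, at chr19:40994172-40994471 on the minus strand, the octamer reads as its reverse complement ATTTGCAT and begins 130 bases before the start, and the ETS core begins 202 bases before it. In Cd79a, at chr7:24897247-24897546 on the plus strand, the ETS core begins 55 bases before the start. A match describes the letters and was not tested as a binding site.
Blnk: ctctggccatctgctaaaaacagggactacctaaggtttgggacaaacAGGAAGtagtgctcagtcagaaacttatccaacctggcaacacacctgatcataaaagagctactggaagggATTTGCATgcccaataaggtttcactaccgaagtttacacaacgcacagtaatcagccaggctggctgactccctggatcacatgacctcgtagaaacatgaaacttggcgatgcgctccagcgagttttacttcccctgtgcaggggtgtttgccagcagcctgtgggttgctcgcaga
Cd79a: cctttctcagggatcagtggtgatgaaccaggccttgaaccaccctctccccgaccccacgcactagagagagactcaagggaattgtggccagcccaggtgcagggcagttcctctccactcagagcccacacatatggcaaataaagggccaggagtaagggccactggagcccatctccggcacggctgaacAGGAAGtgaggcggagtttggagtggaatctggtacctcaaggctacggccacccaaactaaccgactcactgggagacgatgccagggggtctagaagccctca

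Ptprc, which encodes the pan-leukocyte protein CD45, was also higher in the treated tumors. Its counts were 117, 41, 154 and 31 in PBS tumors 1 to 4 and 220, 136, 137 and 303 in STING agonist tumors 1 to 4. All 4 treated tumors were above every control after scaling, and PBS tumors 2 and 4 were lowest. The log2 fold change of Ptprc was 1.24 (SE 0.38, adjusted p = 0.181, edgeR). Set against leukocyte RNA, Blnk had 17.9, 36.1 and 14.3 counts per 100 Ptprc counts in PBS 1, PBS 2+4 and PBS 3 and 16.8, 16.2, 21.9 and 11.2 in the treated tumors. Cd79b had 17.1, 44.4 and 21.4 per 100 Ptprc counts in the controls and 12.7, 7.35, 18.2 and 12.2 after treatment. Cd22 had 4.27, 38.9 and 12.3 in the controls and 9.55, 4.41, 11.7 and 5.94 after treatment. On this scale the groups overlapped in all 3 genes, the highest value in each was that of PBS 2+4, and the order of the groups seen in Blnk after housekeeping scaling was gone. The log2 fold changes with Ptprc as the library size were -1.05 for Cd79b, -1.04 for Cd22 and -0.39 for Blnk (adjusted p = 0.0835, 0.202 and 0.46, edgeR). Cd79b was then the 1 gene of the 8 with an unadjusted p under 0.05, in the lower direction, on a scale that put 55.7% of the panel (418 genes) past the same threshold in that direction. In a fit chosen after seeing the data, with PBS 2+4 left out on the Ptprc scale, the 3 genes had -0.61, -0.11 and 0.03, with intervals of -1.57 to 0.35, -1.36 to 1.14 and -0.90 to 0.96, and 0 of the 8 genes had an unadjusted p under 0.05. At that threshold 225 panel genes were lower and 5 higher in this fit. Its panel median was -0.67, against -1.13 with PBS 2+4 kept. Without that 1 sample Cd22 and Blnk were thus near 0, on a scale where the panel as a whole also moved up. The part of leukocyte RNA in the housekeeping-scaled difference of Blnk was not tested further.

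**Figure D3:**
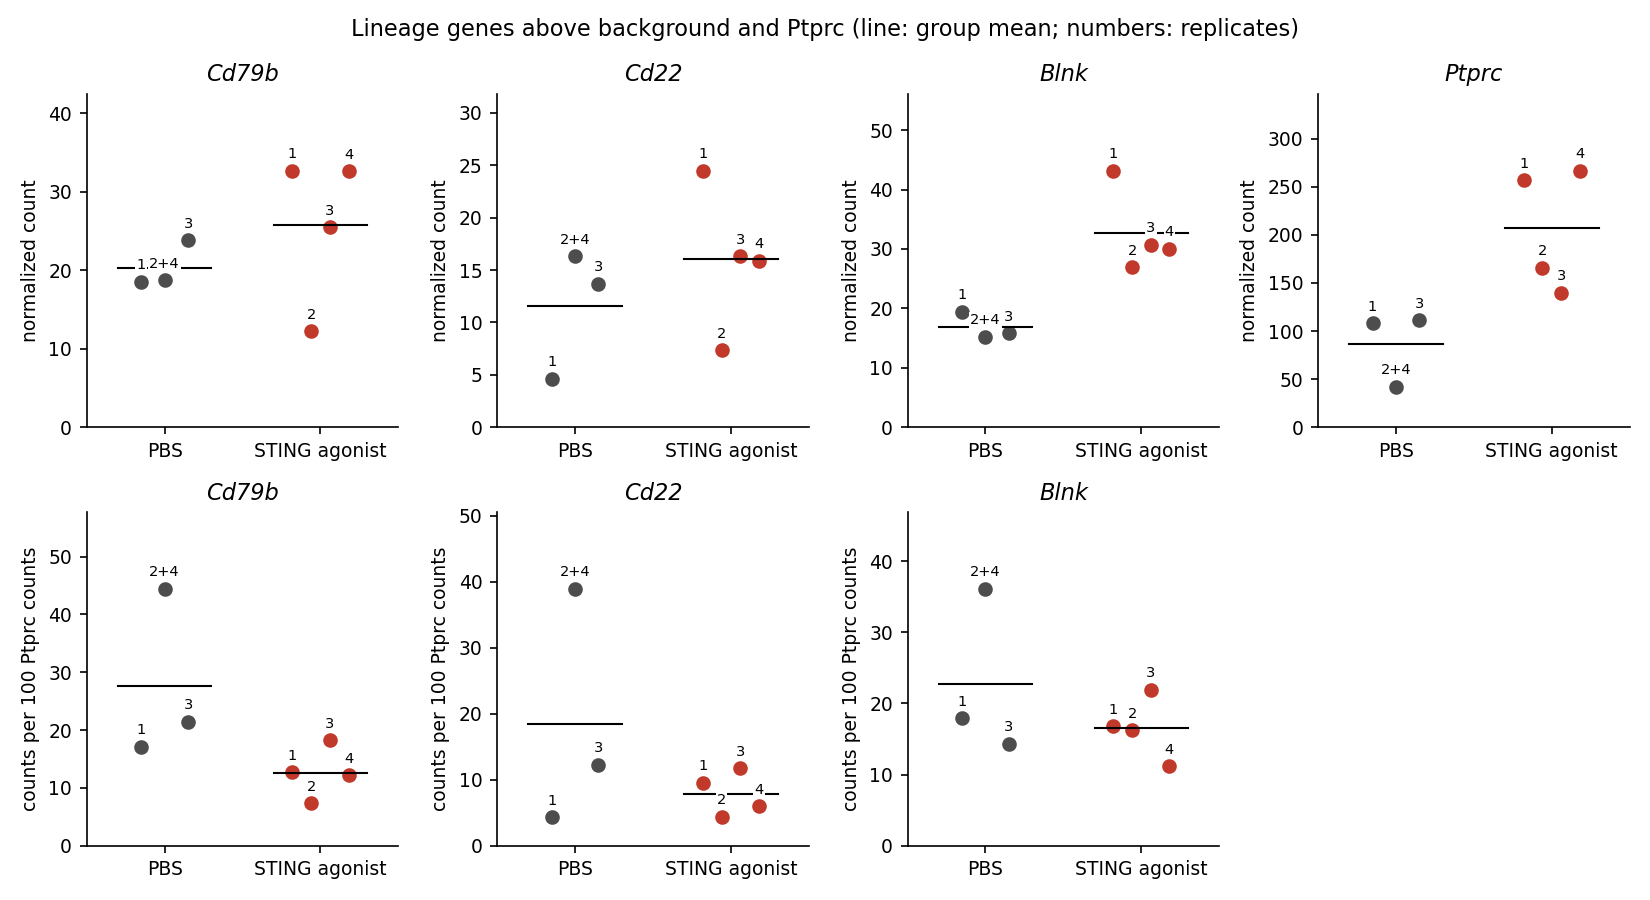
Upper row, normalized counts (housekeeping scale) of Cd79b, Cd22, Blnk and Ptprc, and lower row, counts of the 3 lineage genes per 100 Ptprc counts, in 3 PBS samples (grey, tumors 2 and 4 averaged) and 4 STING agonist tumors (red), with group means as lines. In the upper row all treated values of Blnk (26.9 to 43.2) lie above the controls (15.2 to 19.4), and in the lower row they lie at 11.2 to 21.9 and overlap the controls at 14.3 to 36.1, with STING agonist 4 below the lowest control.

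The choice of scale moved the whole panel as well as these genes. The panel's median log2 fold change was 0.22 after housekeeping scaling, -0.02 with TMM normalization, -0.04 with the size factors of DESeq2, 0.01 with the total count and -1.13 with Ptprc. The split of genes at an unadjusted p under 0.05 moved with it, from 132 higher and 10 lower to 84 and 40 with TMM normalization, 78 and 44 with size factors, 68 and 31 with the total count and 5 and 418 with Ptprc. Measured from the median of all genes, Blnk was 0.73 higher after housekeeping scaling and 0.71, 0.72, 0.72 and 0.74 higher under the other 4 scales in the same order. Cd22 stood 0.26 above the median after housekeeping scaling and 0.09 to 0.27 above it otherwise, and Cd79b 0.13 and 0.08 to 0.10. A change of library size shifts all genes of a sample alike, so distances from the median are largely fixed by construction and are no separate evidence.

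Several other genes that define B cells were also near the negative probes. Cr2, the complement receptor of mature B cells, had 1 to 8 counts, and Cxcr5, the receptor that guides B cells to follicles, had 1 to 9 counts, with 0 tumors above the limit in either. The receptors for the survival factors BAFF and APRIL were also low. Tnfrsf17, found on plasma cells, had 2 to 15 counts and Tnfrsf13b 1 to 13 counts, both with means at or under background. Tnfrsf17 was above the limit in 4 tumors and Tnfrsf13b in 2. Tnfrsf13c, the BAFF receptor, had 18, 9, 12 and 9 counts in the PBS tumors and 6, 7, 14 and 10 in the treated tumors, with a log2 fold change of -0.29 (adjusted p = 0.766, edgeR) that was 0.03 without PBS tumor 1. Tnfsf13b, which encodes BAFF itself and is made by myeloid and stromal cells, was measured well above background at 15 to 62 counts, with a log2 fold change of 0.22 that matched the panel median and an adjusted p of 0.812 in edgeR. It was -0.03 with TMM normalization, -0.04 with size factors, -0.02 with the total count, -1.05 with Ptprc and -0.01 without PBS tumors 2 and 4.

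The chemokine Cxcl13, which draws Cxcr5-bearing B cells into follicles, differed in the other direction from Blnk. It had 54, 36, 47 and 30 counts in PBS tumors 1 to 4 and 9, 4, 29 and 28 counts in STING agonist tumors 1 to 4. Normalized, it was 50.0, 38.5 and 33.9 in PBS 1, PBS 2+4 and PBS 3 and 10.5, 4.89, 29.6 and 24.7 in the treated tumors. All 4 treated tumors lay below every control, with STING agonist tumors 1 and 2 far below and tumors 3 and 4 just below. On the panel, 11 genes (1.47%) were lower without overlap. STING agonist tumor 2 was not above its limit, so the size of the difference is uncertain. The controls averaged 40.8 ± 8.28 (SD, n = 3) and the treated tumors 17.4 ± 11.6 (SD, n = 4). The log2 fold change of Cxcl13 was -1.20 (SE 0.53, 95% interval -2.40 to 0.01, adjusted p = 0.262, edgeR), and it stayed negative in every alternative, between -0.75 and -1.56 outside the Ptprc scale and -2.55 on it. Its unadjusted p was 0.051, and it was under 0.05 in 12 of the 23 alternatives, with 0 of them under 0.05 after adjustment.

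The other genes of the pathway were taken from 6 lists. Of their 51 genes on the panel, 38 were above background, the median log2 fold change was 0.34, and at an unadjusted p under 0.05, 7 were higher and 0 lower, against 17.6% and 1.33% of the panel, with 0 after adjustment in edgeR. The count of 7 depended on single samples, being 4 without PBS tumors 2 and 4 or without STING agonist tumor 1, 11 without STING agonist tumor 2 or 3, and 14 without PBS tumor 3. By list, the coreceptor and surface genes had 4 of 13 higher and a median of 0.31, the genes of receptor signalling 0 of 10 and 0.61, and the transcription factors 1 of 4 and 0.64. The BAFF and APRIL genes had 0 of 5 and a median of -0.24, the genes of follicles and lymphoid tissue 2 of 12 and 0.06, and those of plasma cells and antibody 0 of 8 and 0.38. Cd38 was in both the first list and the last.

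The genes that passed the unadjusted threshold in these lists are shared with myeloid cells or T cells. Among the surface genes, Cd40, the receptor for T cell help on B cells, dendritic cells and macrophages, had 38, 53, 88 and 38 counts in PBS tumors 1 to 4 and 88, 68, 89 and 133 in the treated tumors, which gave a log2 difference of 0.95 with an SE of 0.27 and an adjusted p of 0.175 in edgeR. Cd180 and Ly86, whose products form a Toll-like receptor complex on B cells and macrophages, were higher by 1.38 (SE 0.46) and 1.25 (SE 0.47) on the log2 scale, and Cd83, a marker of activated dendritic cells and B cells, by 1.53 (SE 0.49). The groups did not overlap in any of the 4, with every treated tumor above the highest control. These 4 were named because they passed the unadjusted threshold, so this is no separate evidence. Over the 51 genes of the 6 lists, 7 were higher without overlap and 1, Cxcl13, was lower. On the panel the shares were 16.8% and 1.47%. Ly86 in the controls ran from 47.8 normalized counts in PBS 2+4 to 285 in PBS 1, and in the treated tumors from 382 to 509, and its log2 fold change was 0.80 without PBS 2+4 and 1.93 with the replicate block. Irf8, a transcription factor of B cells and of the monocyte and dendritic lineages, had a log2 fold change of 0.70 with 3 of 4 treated tumors above every control. Ltb, a lymphotoxin subunit made by lymphocytes, and Il7r, the interleukin-7 receptor of lymphocytes, had 1.28 and 1.46, with 4 and 2 of 4 treated tumors above every control. In Cd83 and Ltb, PBS tumors 2 and 4 were not above their limits, and in Il7r PBS tumor 1 was not. The size of these differences is therefore uncertain. Of 23 alternatives, the unadjusted p was under 0.05 in 14 for Irf8, 16 for Ltb, 18 for Il7r, 19 for Ly86 and 22 for each of Cd40, Cd180 and Cd83. Irf8 did not pass with TMM normalization, size factors, the total count, positive controls or Ptprc. It also did not pass without PBS 1, PBS 2+4, STING agonist 1 or STING agonist 4. Pou2f2, which encodes the octamer factor Oct-2, and Bcl10, an adaptor of antigen receptor signalling, did not overlap between the groups but had unadjusted p-values above the threshold. Their log2 fold changes were 1.20 and 0.19, and that of Bcl10 was -0.09 with TMM normalization or size factors and -0.01 with the total count. Pou2f2 was not above the limit in PBS tumors 2 and 4 either, so the size of its difference is uncertain as well. With Ptprc as the library size, Cd180, Ly86 and Cd83 were at 0.18, 0.20 and 0.20, Ltb and Il7r at 0.06 and 0.02, and Cd40, Irf8, Pou2f2 and Bcl10 at -0.50, -0.63, -0.02 and -1.29.

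**Figure D4:**
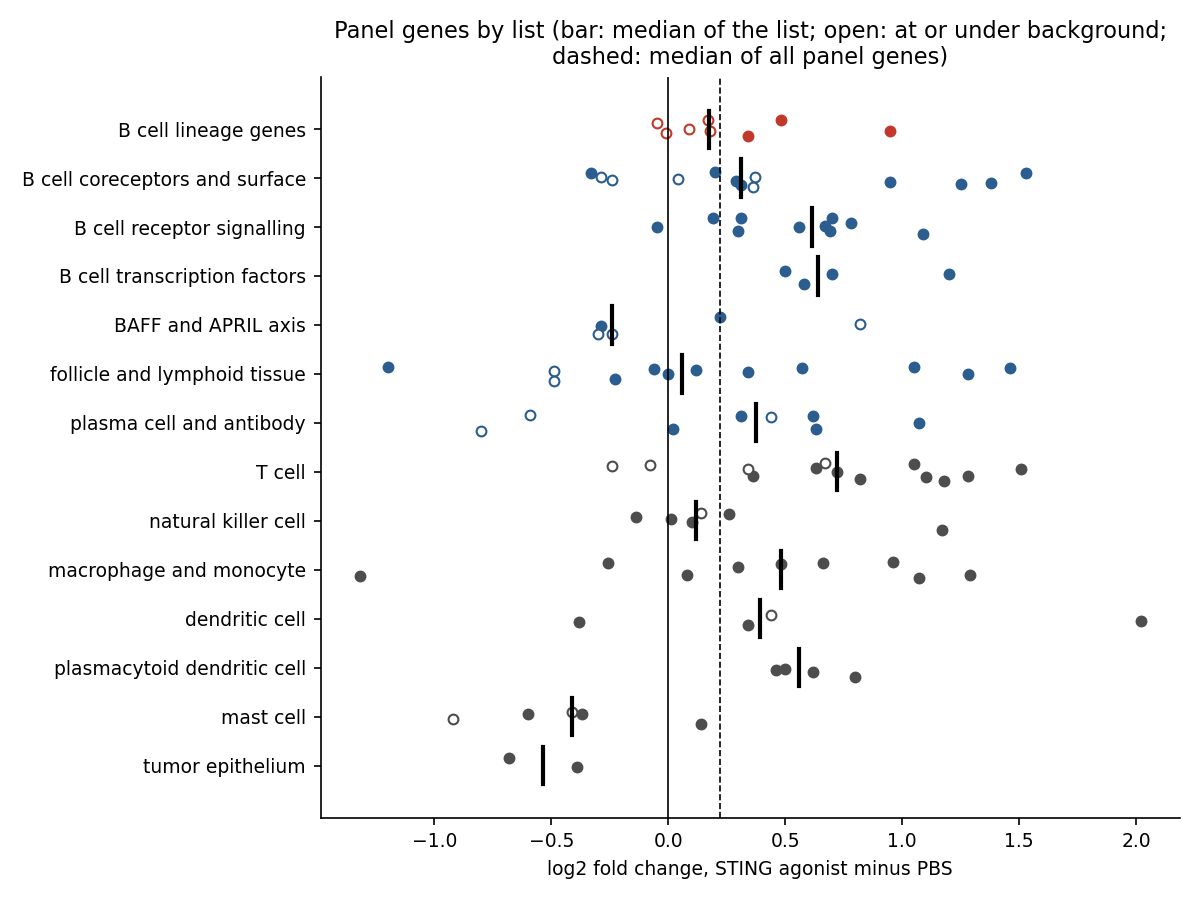
Log2 fold change, STING agonist minus PBS, of each panel gene in the B cell lineage (red), in 6 lists of other B cell pathway genes (blue) and in lists of other cell types (grey), after housekeeping scaling. Bars are list medians, open symbols are genes at or under background and the dashed line is the panel median of 0.22. The lineage genes have a median of 0.18, with 5 of the 8 at or under background, and the T cell list one of 0.72, and with Ptprc as the library size the panel median itself was -1.13. The single genes of the pan-leukocyte and hepatocyte lists are not drawn.

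Marker genes of the other cells in the tumors were measured beside the lineage genes. T cell genes had a median log2 fold change of 0.72 over 13 genes, with 4 higher at an unadjusted p under 0.05. Their summed normalized counts were 230, 146 and 256 in PBS 1, PBS 2+4 and PBS 3 and 517, 277, 296 and 476 in STING agonist tumors 1 to 4. Cd3d, their most abundant gene, had a log2 fold change of 0.36 (0.21 to 0.48 with samples left out, 0.07 with size factors). Cd3e had one of 1.18 and Cd8a one of 1.28. On the Ptprc scale all 3 were negative, at -1.10, -0.10 and -0.03. Cd3e in PBS tumors 2 and 4 and Cd8a in PBS tumor 2 were not above the limit, so the size of these differences is uncertain. Macrophage and monocyte genes had a median of 0.48 over 9 genes, with 2 higher and 1 lower at that threshold. These were Emr1 at 1.29, Fcgr1 at 1.07 and Cd163 at -1.32, named after their values were seen, as was Mrc1 at -0.26. Fcgr1 was 0.67 without PBS 2+4, and Cd163 was -0.89 without PBS tumor 3 and -0.95 with the replicate block, both with an unadjusted p above 0.05. The sum of the list was 4580, 2123 and 6012 in the controls and 7422, 5738, 5775 and 7151 in the treated tumors. Lyz2, the most abundant, had a log2 fold change of 0.66 and Csf1r one of 0.96. They had -0.51 and -0.08 on the Ptprc scale, 0.32 and 0.51 without PBS 2+4, and 1.05 and 1.66 with the replicate block. Each had an unadjusted p under 0.05 in 5 of 23 alternatives. PBS 2+4, the sample with the highest lineage gene counts per Ptprc count, was the lowest of the 7 in both sums. Of the other lists, dendritic cell genes had 1 of 4 higher and a median of 0.39, with Ccr7, also in the follicle list, the most abundant. The higher gene was Itgax, which encodes CD11c, also named after its values were seen. It had 3 to 8 counts in the PBS tumors, none above its limit, and 8 to 25 in the treated tumors, 3 of them above it. Its log2 fold change, taken over a control group at background, ran from 0.61 (limma, pseudocount 20) to 3.84 (background subtracted) and no exact size is drawn from it. Plasmacytoid dendritic cell genes had 2 of 4 and 0.56, with Bst2 the most abundant at 0.46. Bst2 was 0.19 with TMM normalization, 0.18 with size factors and -1.04 with Ptprc. It had 3111 to 6645 counts, where Ptprc had 31 to 303, so no amount of these cells is drawn from it. Natural killer cell genes had 1 of 6 and 0.12, with Gzma the most abundant at 0.26 (0.04 to 0.63 with samples left out), and mast cell genes 0 of 5 and -0.41, with Kit the most abundant at 0.14. The 2 epithelial genes had 0 of 2 and -0.54, with Cdh1 the most abundant at -0.68. Over these lists, Ptprc and the hepatocyte gene Ambp, 12 of 45 genes were higher at the unadjusted threshold and 1 was lower. On the panel the shares were 17.6% and 1.33%, and the difference between the shares was not tested. The 13 became 6 without STING agonist tumor 1 and 7 without STING agonist tumor 4. The 142 of the panel became 85 and 89 in the same fits. Ambp had 864 counts in STING agonist tumor 4 and 2 to 10 in the others, and its log2 fold change of 4.88 was 0.18 without that tumor. In STING agonist tumor 4 the lineage genes summed to 117 counts, between the 111 of STING agonist tumor 1 and the 121 of PBS tumor 3. What part these cell types had in the Blnk difference was not tested.

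With each group's mean removed, Cd79b had a correlation (r) of 0.69 with Cd22 and 0.52 with Blnk, and Cd22 one of 0.19 with Blnk. As a description of pattern, the mean log2 normalized count of these 3 genes was also taken after removal of each group's mean. It was correlated over the 7 samples with each of 610 other genes above background. The closest were Il6ra (r = 0.99), Tnfrsf9 and Sh2b2 (both 0.96), and Cd14 and Klra7 (both 0.95). All 7 points share the housekeeping scale of their sample, and an r over 7 points carries a wide error. With the group difference kept, the same genes had r of 0.92, 0.40, 0.62, 0.82 and 0.32, and 0 of them were among the closest 5. Their own log2 fold changes were 0.21, -0.44, -0.15, 0.08 and -0.42, none with an unadjusted p under 0.05. With samples left out, Il6ra ran from 0.08 to 0.39, Tnfrsf9 from -0.77 to -0.24, Sh2b2 from -0.44 to 0.04, Cd14 from -0.11 to 0.24 and Klra7 from -0.63 to -0.24. Il6ra, like Cd79b, Cd22 and Blnk, was lowest among the treated tumors in STING agonist tumor 2, with 70.9 normalized counts there and 121 to 147 in the other 3.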

How the data were processed

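The authors deposited raw counts of 784 probes per tumor (750 genes, 20 housekeeping, 8 negative and 6 positive control probes), hybridized to total RNA of whole tumors. They had been neither scaled nor corrected for background. Each tumor's lowest count was 1, so a count of 1 may mean none. Groups and replicate numbers came from the sample titles, doses and days from the study's methods. Counts of PBS tumors 2 and 4 were averaged and rounded. With R 4.3.3, edgeR 4.0.16 (quasi-likelihood test) ran on all 750 genes without a filter, with housekeeping library sizes and Benjamini-Hochberg adjustment, and was tested on simulated data. Alternatives were other scales (TMM, DESeq2 1.42.0 size factors, total count, 19 housekeeping genes with at least 100 counts, positive controls, Ptprc), filters at a mean of 20 counts or at background, subtraction of the negative mean, the Wald test of DESeq2, limma 3.58.1 with pseudocounts of 1 and 20, all 8 tumors separate, each sample left out, the replicate number as a block and, chosen after seeing the data, Ptprc scaling without PBS 2+4. Named genes are the 8 lineage genes; of the B cell pathway lists, genes above background with an unadjusted p under 0.05 or groups without overlap, and a set of defining genes, of which 1 is not reported here; the most abundant gene of each other list with Ptprc, Cd3e, Cd8a, Csf1r and Ambp, and 4 macrophage genes and Itgax named after their values were seen; and the 5 genes closest in pattern. The lineage genes and lists were chosen with earlier results of these data known. All 8 lineage probes matched their RefSeq symbol by transcript. Python 3.11.15 and matplotlib 3.10.9 gave tables and figures.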

Additional observations from a re-analysis of the deposited data

Results flagged for a closer look

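In 3 of the 42 genes looked at, 1 of the 4 treated tumors stood apart from the other 3, by a gap that took more of the range of the 4 tumors than the 95% limit of Dixon's test, and chance gives about 2.1. None of the 3 was a lineage gene. The gap was 0.88 of the range for Bcl10 in STING agonist tumor 1 (747 normalized counts against 655 to 666), 0.9 for Cxcr5 in STING agonist tumor 3 (7.15 against 1.17 to 1.76, at or under background) and 0.988 for Ambp in STING agonist tumor 4 (762 against 2.44 to 11.7). The control group was not tested, since the rule starts at 4 samples, so a control that stands apart, such as PBS 1 or PBS 2+4 in some genes, is not flagged here.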

How the results depend on the processing

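The 8 lineage genes had 0 calls after adjustment under every alternative run. At an unadjusted p under 0.05 they had 1, which was Cd79b (lower) on the Ptprc scale and Blnk in the others. The exception was Ptprc scaling with PBS 2+4 left out, an alternative chosen after seeing the data. There they had 0, with Cd79b at -0.61, Cd22 at -0.11 and Blnk at 0.03. In that fit 225 panel genes were lower and 5 higher at the unadjusted threshold, with a panel median of -0.67. Outside the Ptprc scale, the log2 fold change of Blnk lay between 0.51 (limma, pseudocount 20) and 1.18 (background subtracted), with an adjusted p of 0.0791 to 0.432, and between 0.79 and 1.07 with samples left out. With samples left out, Cd79b lay between 0.21 and 0.57 and Cd22 between 0.10 and 0.77. The 5 genes at or under background are measured by so few counts that depth limits them, and they have no value under the filter at background or, with Cd22, under that at a mean of 20 counts. With the replicate number as a block (all 8 tumors separate), Blnk had an adjusted p of 0.158 (edgeR) and 172 panel genes passed the unadjusted threshold, 0 after adjustment. The labels do not say whether the numbers pair the tumors. The deviations of same-numbered tumors had correlations of -0.241 to -0.0793, so none was positive. As PBS tumors 2 and 4 were near-identical, these correlations cannot settle whether a pairing exists. The block changed no call of a lineage gene.

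The panel count after adjustment was 52 with the Wald test of DESeq2, where Cd40, Cd180, Cd83, Ptprc, Emr1 and Itgax passed (adjusted p = 0.0249, 0.0434, 0.0338, 0.0321, 0.0437 and 0.0292, Itgax with no control tumor above its limit), and 0 to 7 with samples left out. The unadjusted count was 423 with Ptprc scaling and 85 to 160 with samples left out. For the 6 pathway lists it was 21 with Ptprc scaling, 11 with the Wald test and with limma at either pseudocount, 15 with all tumors separate, 16 with the replicate block and 4 to 14 with samples left out, and for the other cell types 6 to 15 with samples left out. Of the 5 genes closest in pattern, 0 stayed with the group means kept and 1 with a limit of 20 counts.

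These log2 fold changes turned their sign. With Ptprc scaling they were -1.05 for Cd79b, -1.04 for Cd22, -0.39 for Blnk, -0.50 for Cd40, -1.29 for Bcl10, -0.63 for Irf8, -0.02 for Pou2f2, -1.05 for Tnfsf13b, -1.10 for Cd3d, -1.02 for Gzma, -0.51 for Lyz2, -1.25 for Ccr7, -1.04 for Bst2, -1.28 for Kit, -0.10 for Cd3e, -0.03 for Cd8a, -0.08 for Csf1r, -0.09 for Fcgr1, -1.27 for Il6ra and -1.47 for Cd14, which follows from the library size, Ptprc itself being higher by 1.24. With TMM, DESeq2 size factors and the total count, in this order, Bcl10 had -0.09, -0.09 and -0.01, Tnfsf13b -0.03, -0.04 and -0.02, Kit -0.11, -0.12 and -0.04 and Cd14 -0.20, -0.21 and -0.12, and with the first 2, Gzma had -0.02 and -0.03 and Il6ra -0.06 and -0.07, where the median of all genes moved from 0.22 to between -0.04 and 0.01. Cd14 had -0.00 with all tumors separate and -0.01 with the replicate block. With samples left out, Tnfrsf13c ran from -0.54 to 0.03, Tnfsf13b from -0.01 to 0.57, Kit from -0.15 to 0.34, Sh2b2 from -0.44 to 0.04 Mrc1 from -0.65 to 0.09 (-0.58 without STING agonist tumor 3, 0.15 with the replicate block) and Cd14 from -0.11 to 0.24 (0.23 without STING agonist tumor 2). For these the cause was not tested.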
